A study of Homo sapiens with 15 samples.

Results

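Regulators of G-protein signalling (RGS proteins) shorten signalling by heterotrimeric G proteins, and 10 of their genes are described here in MCF-10A, a human mammary epithelial cell line that does not form tumours. The genes were given as a list (RGS2, RGS3, RGS4, RGS5, RGS10, RGS12, RGS16, RGS17, RGS19 and RGS20) and make up 10 of the 60721 genes in the count table. RGS4 was chosen by its measured level, which was higher in NF1-edited lines in these same data, so its levels in edited against unedited cells are described without a test. The other 9 genes were listed for their family. All 10 had enough counts to be among the 17457 genes tested.

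The study sequenced polyadenylated RNA from 15 libraries, 3 for each of 5 genotypes: parental cells, cells with an empty vector, and lines edited in NF1 with guide RNA 1, with guide RNA 2, or with both guides. NF1 encodes neurofibromin, which lowers RAS activity. All cells grew in the same medium with horse serum, EGF, hydrocortisone, insulin and cholera toxin and had no further treatment. The labels call the replicates biological, but they do not say whether cultures were separate or whether a line is a clone or a pool, so p-values measure the spread between these libraries.

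A heterotrimeric G protein signals while its alpha subunit holds GTP. The RGS domain speeds up the hydrolysis of that GTP, which ends the signal, and most family members act on alpha subunits of the Gi and Gq classes. The R4 subfamily (here RGS2, RGS3, RGS4, RGS5 and RGS16) holds mostly small proteins, whereas the R12 subfamily (RGS10 and RGS12) and the RZ subfamily (RGS17, RGS19 and RGS20) differ from it in the parts outside that domain. NF1 acts in the same way on a different GTPase, RAS.

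Library totals lay between 46129559 and 78976917 counts (median 55942785), so that 3 counts correspond to 0.038 to 0.065 CPM, which is counts scaled by the library total. NF1 stood at 26.04 to 51.3 CPM in the 9 edited libraries and at 115.33 to 158.73 CPM in the 6 unedited ones. All 11 mammary epithelial marker transcripts examined had counts in every library, but CDH1 had only 1, 2 and 3 counts in guide 1 replicate 1 and guide 2 replicates 1 and 3, and TP63 only 3 and 5 counts in guide 2 replicates 1 and 3. Guide 2 replicate 2 stood apart from the other libraries: 25.7% of tested genes had their lowest level of all 15 libraries in it, and 26.1% their highest. Results on the RGS genes that rest on it are therefore given with and without it, and so are the counts of other genes called.

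The sequences just before the annotated starts of 5 members are shown because the results turn on these genes. They are from RefSeq (GRCh38.p14), run 5′ to 3′ on the strand of the gene, and leave out annotated UTR and coding bases. Capitals mark the GC box GGGCGG and the E-box CACCTG, each searched on both strands. The RGS4 stretch is chr1:163068621-163068774 (plus strand), that of RGS2 chr1:192808789-192809038 (plus), that of RGS5 chr1:163321792-163321889 (minus), that of RGS16 chr1:182604409-182604639 (minus) and that of RGS12 chr4:3292771-3293020 (plus).
RGS4: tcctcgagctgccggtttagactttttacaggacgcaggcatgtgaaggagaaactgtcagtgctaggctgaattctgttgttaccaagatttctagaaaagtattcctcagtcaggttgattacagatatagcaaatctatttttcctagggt
RGS2: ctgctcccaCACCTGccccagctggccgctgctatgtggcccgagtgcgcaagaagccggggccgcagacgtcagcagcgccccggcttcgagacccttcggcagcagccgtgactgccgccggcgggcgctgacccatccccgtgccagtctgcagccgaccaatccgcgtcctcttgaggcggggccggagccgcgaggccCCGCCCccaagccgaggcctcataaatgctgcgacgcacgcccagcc
RGS5: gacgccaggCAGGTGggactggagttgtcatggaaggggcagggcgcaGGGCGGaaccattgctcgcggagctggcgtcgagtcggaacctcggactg
RGS16: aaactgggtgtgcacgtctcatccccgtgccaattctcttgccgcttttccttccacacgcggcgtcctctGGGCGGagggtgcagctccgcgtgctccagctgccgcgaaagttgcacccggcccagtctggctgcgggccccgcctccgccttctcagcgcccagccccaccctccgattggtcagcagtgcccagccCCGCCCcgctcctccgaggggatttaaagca
RGS12: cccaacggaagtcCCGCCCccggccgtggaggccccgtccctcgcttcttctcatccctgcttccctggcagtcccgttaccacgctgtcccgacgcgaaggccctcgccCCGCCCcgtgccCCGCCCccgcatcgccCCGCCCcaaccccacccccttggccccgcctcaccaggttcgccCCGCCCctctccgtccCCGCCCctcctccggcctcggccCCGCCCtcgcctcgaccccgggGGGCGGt
The RGS4 stretch held 41.6% G and C bases and neither motif. RGS2 had 72.8% with 1 GC box and 1 E-box, and RGS12 had 78% with 8 GC boxes. Over the full 250 bases before 23 RefSeq starts of 9 members (RGS20 was not examined), a GC box occurred in 12 windows. These belonged to 8 members, and RGS4 with its 4 windows was the exception. The GC box was present in 42.6% of 35116 such windows in the reference table, and the median window had 58% G and C. The TATA sequence TATAAA (both strands) occurred in 2 member windows, of RGS3 and RGS4, and in 10.7% of all windows. In RGS4 it lay 30 bases before the start at position 163069361. The E-box occurred in 3 member windows, of RGS2, RGS3 and RGS5, and in 17.5% of all windows. Neither the cyclic AMP response element TGACGTCA (1.65% of all windows) nor the AP-1 sequence TGANTCA (6.57%) occurred in a member's window. Counts per gene do not tell which start is used.

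RGS4 (ENSG00000117152, chromosome 1, 163068775 to 163076802, plus strand, GRCh38) encodes a small R4 protein that acts on Gi and Gq alpha subunits. Its level was 0.805, 0.848 and 0.522 CPM in the empty-vector libraries and 1.96, 1.49 and 1.34 CPM in the parental libraries (replicates 1, 2 and 3 in this order here and throughout). In guide 1 cells it was 5.25, 5.12 and 3.66 CPM. In guide 2 cells it was 10.4, 1.99 and 10.5 CPM, and in cells with both guides 2.80, 3.42 and 3.32 CPM. The 9 edited libraries (1.99 to 10.46 CPM) lay above the 6 unedited ones (0.522 to 1.96 CPM), with guide 2 replicate 2 and parental replicate 1 almost touching. Among all tested genes 0.281% had ranges that did not overlap in this way, 17 of them higher in edited cells. RGS4 was chosen for this pattern, so nothing is read from it.

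Group means of RGS4 were 0.725 ± 0.177 CPM in empty-vector cells, 1.60 ± 0.325 in parental cells and 3.18 ± 0.337 under both guides (SD, n = 3 each). They were 4.67 ± 0.883 in guide 1 cells and 7.63 ± 4.88 in guide 2 cells (SD, n = 3 each). Log2 fold changes from the empty vector were 2.68 for guide 1, 3.39 for guide 2 and 2.11 for both guides. Against parental cells they were 1.57, 2.28 and 1.00 in the same order. Without guide 2 replicate 2, the guide 2 values became 3.81 against the empty vector and 2.72 against parental cells. The counts behind these levels ran from 28 to 724 per library.

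The unedited groups did not overlap in RGS4. The choice of the gene used these levels against the edited lines, so nothing is read from the difference between the unedited groups or from its p-values. Every parental library was above every empty-vector library, and the difference did not pass with all libraries (log2 difference 1.11, SE 0.479, edgeR adjusted p = 0.219). Without guide 2 replicate 2, which belongs to neither group but widens the common estimate of the spread, it was 1.09 (edgeR adjusted p = 0.00693). Between edited lines, RGS4 was lower with both guides than with guide 2, at a log2 ratio of -1.28 (SE 0.449, edgeR adjusted p = 0.632). In the fit without guide 2 replicate 2 this was -1.72 (SE 0.210, edgeR adjusted p = 0.00122), and both remaining guide 2 libraries were above every library with both guides. The library left out had the lowest RGS4 level of the edited ones (1.99 CPM), so its absence raises the guide 2 level. Nothing is therefore read from this call, in a gene chosen by its level. Guide 1 against guide 2 gave -0.71 (edgeR adjusted p = 0.402) and both guides against guide 1 gave -0.57 (edgeR adjusted p = 0.589), and neither passed without that library.

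**Figure D1:**
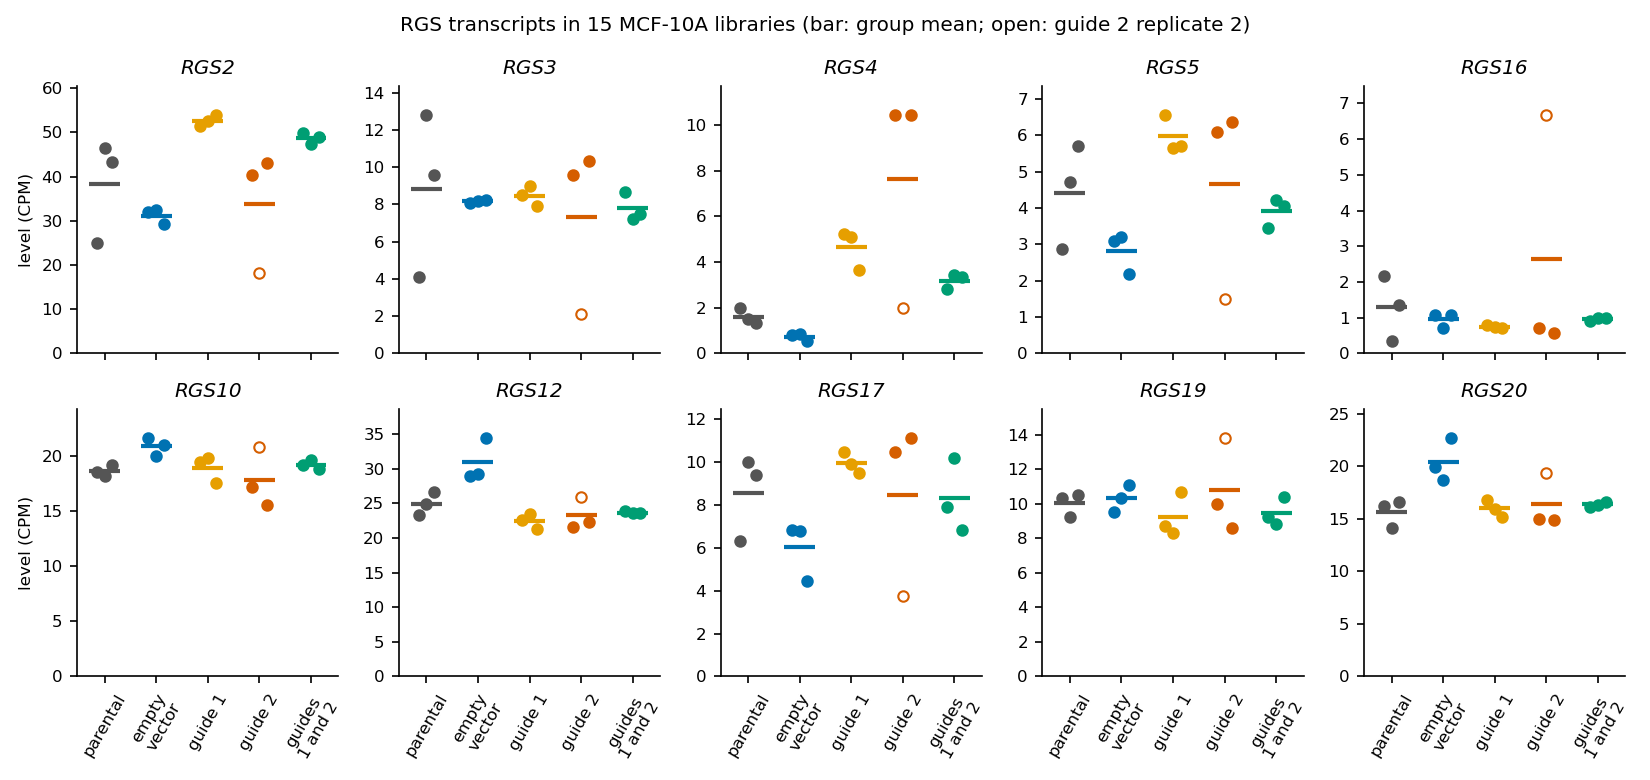
Level of each of the 10 RGS transcripts (vertical axis, CPM, from 0) in every library by genotype (horizontal axis). Points are single libraries, bars are group means and the open point is guide 2 replicate 2. RGS4 is at 1.99 to 10.46 CPM in the edited libraries and at most 1.96 CPM in the unedited ones. The open point lies far from its group for RGS2, RGS3, RGS4, RGS5, RGS16 and RGS17.

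Among the other R4 genes edgeR called none changed in any comparison with all 15 libraries. RGS2 (ENSG00000116741, chromosome 1, 192809039 to 192812283, plus strand) encodes a protein that acts mainly on Gq and is known as an early response gene. It was at 32.0, 32.4 and 29.2 CPM in empty-vector cells and at 25.0, 46.6 and 43.3 CPM in parental cells. Guide 1 cells had 51.4, 52.6 and 54.0 CPM and cells with both guides 49.8, 47.3 and 49.1 CPM, all above the 6 unedited libraries. Guide 2 cells had 40.4, 18.1 and 43.0 CPM and overlapped with the parental libraries. The log2 fold change of guide 1 against the empty vector was 0.75 (SE 0.268, edgeR adjusted p = 0.125), and that of both guides 0.62 (SE 0.268, edgeR adjusted p = 0.315). In the fit without guide 2 replicate 2 they were 0.73 (edgeR adjusted p = 0.00631) and 0.61 (edgeR adjusted p = 0.0377), so that RGS2 passed the threshold in both.

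RGS5 (ENSG00000143248, chromosome 1, 163111121 to 163321791, minus strand) is best known from pericytes. It was at 3.08, 3.19 and 2.18 CPM in empty-vector cells and at 2.86, 4.70 and 5.69 CPM in parental cells. Guide 1 cells had 6.57, 5.66 and 5.71 CPM, guide 2 cells 6.09, 1.50 and 6.36 CPM, and cells with both guides 3.45, 4.23 and 4.04 CPM. Guide 1 and both guides were above the empty vector in every library. The log2 fold change was 1.08 for guide 1 (SE 0.408, edgeR adjusted p = 0.145) and 0.72 for guide 2 (SE 0.407, edgeR adjusted p = 0.373). Both passed without guide 2 replicate 2, at 1.06 (edgeR adjusted p = 0.00403) and 1.11 (edgeR adjusted p = 0.00672). RGS5 overlaps NUF2, a kinetochore gene on the opposite strand with levels up to 97.7 CPM, and whether reads were counted by strand is not given in the sources used here, so its level is uncertain. Of 7 pericyte markers, MYH11, DES and CSPG4 reached at most 0.109, 0.0922 and 0.317 CPM in any library. The other 4 were higher: PDGFRB lay between 0.471 and 3.62 CPM, NOTCH3 between 3.59 and 12.3, ACTA2 between 9.09 and 29.4 and MCAM between 45.6 and 217 CPM. Their part in the RGS5 level was not tested.

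RGS3 (ENSG00000138835, chromosome 9, 113444731 to 113597743, plus strand), which acts on Gi and Gq, was at 8.07, 8.19 and 8.24 CPM in empty-vector cells and at 4.12, 12.8 and 9.59 CPM in parental cells. It was at 8.50, 8.98 and 7.93 CPM in guide 1 cells, at 9.61, 2.10 and 10.3 CPM in guide 2 cells and at 8.69, 7.24 and 7.47 CPM with both guides, so edited and unedited libraries overlapped. RGS16 (ENSG00000143333, chromosome 1, 182598623 to 182604408, minus strand), also a regulator of Gi and Gq, had 1.09, 0.701 and 1.08 CPM in empty-vector cells and 2.17, 0.345 and 1.36 CPM in parental cells. It was at 0.785, 0.722 and 0.712 CPM in guide 1 cells and at 0.910, 0.981 and 0.983 CPM with both guides. In guide 2 cells it was at 0.705, 6.69 and 0.564 CPM, and the middle library was 10.5 times the mean of the others. The log2 fold change of RGS16 in guide 2 against the empty vector was 1.44 (SE 0.792, edgeR adjusted p = 0.357) and turned to -0.63 (edgeR adjusted p = 0.482) without that library.

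RGS12 was the one member of the 9 that edgeR called changed with all libraries. DESeq2 also called RGS20, but no share of all genes is given for it. Voom with sample quality weights called up to 7 of the 9, as in the mean of edited against the mean of unedited genotypes. There it called 42% of all genes. Both edgeR calls were decreases against the empty vector, in guide 1 and in guide 2 cells. RGS12 (ENSG00000159788, chromosome 4, 3293028 to 3439913, plus strand) encodes a large R12 protein with a RAS-binding region as well as the RGS domain. It was at 28.97, 29.3 and 34.4 CPM in empty-vector cells and at 23.3, 24.9 and 26.6 CPM in parental cells. Guide 1 cells had 22.5, 23.4 and 21.3 CPM, guide 2 cells 21.6, 25.9 and 22.3 CPM, and cells with both guides 23.8, 23.6 and 23.5 CPM. The 3 empty-vector libraries were above the 12 others, and parental and edited libraries overlapped.

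RGS12 fell by 0.47 on the log2 scale in guide 1 cells (SE 0.0962, edgeR adjusted p = 0.0154) and by 0.43 in guide 2 cells (SE 0.0962, edgeR adjusted p = 0.0278). With both guides the log2 fold change was -0.41 (SE 0.0962, edgeR adjusted p = 0.0616), and in parental cells against the empty vector it was -0.34 (SE 0.0961, edgeR adjusted p = 0.0628). Against parental cells the edited lines differed by -0.13, -0.08 and -0.07 (guide 1, guide 2, both guides). The guide 1 call was lost without empty vector replicate 3 (edgeR adjusted p = 0.0722) or without guide 1 replicate 1 (0.0590). The guide 2 call was lost without empty vector replicate 3 (0.121), guide 2 replicate 1 (0.0922) or guide 2 replicate 3 (0.0846), without the filter on low counts (0.0722), with only the compared groups in the fit (0.246), and with a replicate block (0.0558).

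RGS10 (ENSG00000148908, chromosome 10, 119499828 to 119542708, minus strand) encodes a small R12 protein that acts on Gi. It was the steadiest member, between 15.5 and 21.6 CPM in all libraries, with 21.6, 19.9 and 20.9 CPM in empty-vector cells. Parental cells had 18.6, 18.2 and 19.1 CPM, guide 1 cells 19.5, 19.8 and 17.5 CPM, guide 2 cells 17.2, 20.8 and 15.5 CPM, and cells with both guides 19.2, 19.6 and 18.8 CPM. Its log2 fold change in guide 2 against the empty vector was -0.24 (edgeR adjusted p = 0.216) and, without guide 2 replicate 2, -0.38 (edgeR adjusted p = 0.0121).

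In the RZ subfamily, whose members act mainly on Gz and Gi, edgeR called no gene with all libraries. RGS20 (ENSG00000147509, chromosome 8, 53851808 to 53959303, plus strand) was at 20.0, 18.7 and 22.7 CPM in empty-vector cells and at 16.2, 14.1 and 16.6 CPM in parental cells. It was at 16.8, 16.0 and 15.2 CPM in guide 1 cells, at 15.0, 19.4 and 14.9 CPM in guide 2 cells and at 16.2, 16.3 and 16.6 CPM with both guides. The empty-vector libraries were above all parental, guide 1 and both-guides libraries, and guide 2 replicate 2 overlapped with them. Without guide 2 replicate 2, RGS20 passed the threshold against the empty vector in parental cells (-0.43, edgeR adjusted p = 0.00881), guide 1 (-0.38, edgeR adjusted p = 0.0123), guide 2 (-0.49, edgeR adjusted p = 0.00784) and both guides (-0.36, edgeR adjusted p = 0.0371). With all libraries the same values were -0.42, -0.37, -0.33 and -0.34, with edgeR adjusted p between 0.0607 and 0.187.

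RGS17 (ENSG00000091844, chromosome 6, 153004459 to 153131249, minus strand) was at 6.85, 6.79 and 4.46 CPM in empty-vector cells and at 6.30, 10.0 and 9.40 CPM in parental cells. Guide 1 cells had 10.4, 9.89 and 9.46 CPM, guide 2 cells 10.5, 3.73 and 11.1 CPM, and cells with both guides 7.91, 10.2 and 6.81 CPM. The log2 difference of guide 1 from empty-vector cells was 0.71 (SE 0.332, edgeR adjusted p = 0.239), and 0.70 without guide 2 replicate 2 (edgeR adjusted p = 0.0255). RGS19 (ENSG00000171700, chromosome 20, 64073181 to 64079988, minus strand), also known as GAIP, lay between 8.34 and 13.8 CPM and passed in no comparison in either fit. Its highest level was in guide 2 replicate 2.

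**Figure D2:**
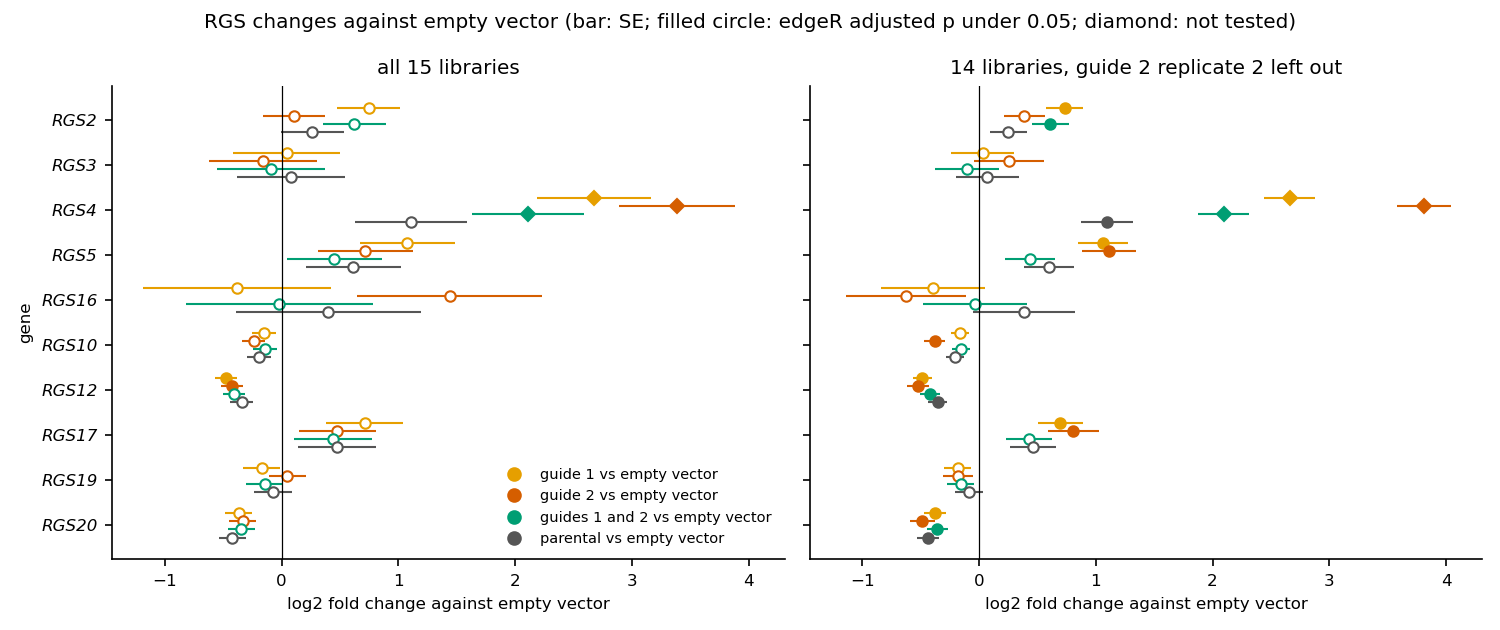
Log2 fold change (horizontal axis) of each RGS gene (vertical axis) in the 3 edited lines and in parental cells against the empty vector, with all 15 libraries (left) and without guide 2 replicate 2 (right). Bars are standard errors taken from the edgeR test statistic, and filled circles passed an edgeR adjusted p of 0.05. Diamonds are RGS4 values for which no p is given, and nothing is read from their bars. RGS12 alone is filled on the left, in guide 1 and guide 2.

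The counts of members are read against the share of all tested genes. With all 15 libraries, 1 of the 9 members other than RGS4 was called in guide 1 against the empty vector, where 5.88% of all genes were called, and 1 of 9 in guide 2, where 3.94% were. In both guides against the empty vector it was 0 of 9, where 0.962% of all genes were called. There, 3 of 9 had an unadjusted edgeR p under 0.05, as had 2444 of the 17457 tested genes, and DESeq2 called 1. No share of all genes is given for DESeq2, so its counts are not read further. Against parental cells it was 0 of 9 in each line, where 0.149%, 0.0516% and 0.195% of genes were called for guide 1, guide 2 and both guides. In each, 0 of 9 had an unadjusted edgeR p under 0.05, against 3471, 1287 and 1742 of the 17457 tested genes, and DESeq2 called 0. In the mean of edited against the mean of unedited genotypes it was 0 of 9, where 1.51% of genes were called. In this comparison 1 of 9 had an unadjusted edgeR p under 0.05, as had 2762 of the 17457 tested genes, and DESeq2 called 1. The median log2 fold change of the 9 genes in that comparison was -0.05, against 0.01 over all tested genes.

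Without guide 2 replicate 2, more genes passed throughout. That library had the lowest level of RGS2, RGS3, RGS5 and RGS17 of all libraries and the lowest RGS4 of the edited ones. For RGS10 and RGS20 it had rank 13 from the lowest. Leaving it out shifts the guide 2 and edited means of these genes, so the counts of this fit are not read as an excess. RGS4, counted in some of them, was chosen by its level. In guide 1 against the empty vector 5 of 9 members were called (RGS2, RGS5 and RGS17 higher, RGS12 and RGS20 lower), where 18.1% of all genes were called. In guide 2 it was 5 of 9 (RGS5 and RGS17 higher, RGS10, RGS12 and RGS20 lower), where 14.5% were called, and in both guides 3 of 9 (RGS2 higher, RGS12 and RGS20 lower), where 6.7% were called. Parental against empty-vector cells gave 3 of 10 (RGS4 higher, RGS12 and RGS20 lower), where 13.9% were called. With all libraries that comparison gave 0 of 10, where 4.37% were called. In that fit 3 of 10 had an unadjusted edgeR p under 0.05, as had 3448 of the 17457 tested genes, and DESeq2 called 2. The edited mean against the unedited mean gave 5 of 9 (RGS2, RGS5 and RGS17 higher, RGS12 and RGS20 lower), where 18% were called. Against parental cells no member of the 9 was called in this fit either, where 14.5%, 5.96% and 2.62% of genes were. Between edited lines it gave 0 of 10 for guide 1 against guide 2 (0.162% of all genes), 0 of 10 for both guides against guide 1 (4.55%) and 1 of 10, RGS4, for both guides against guide 2 (1.83%). Between edited lines 0 of 10 were called with all libraries, where 0.0401% (guide 1 against guide 2), 0.275% (both guides against guide 1) and 0.149% (both guides against guide 2) of genes were. In the same order, 2, 0 and 1 of 10 had an unadjusted edgeR p under 0.05, against 2648, 2270 and 1012 of the 17457 tested genes. DESeq2 called 0 in each. All edited-against-empty-vector comparisons share the same 3 control libraries.

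Libraries were also compared by whether their ranges overlapped. Of the 9 members, 6 did not overlap between guide 1 and the empty vector (36.2% of all genes), 1 between guide 2 and the empty vector (23.1%) and 5 between both guides and the empty vector (37.7%). Parental and empty-vector cells did not overlap for 4 of 10 members, RGS4 higher and RGS10, RGS12 and RGS20 lower (32.1%). RGS2 alone of the 9 did not overlap between guide 1 and parental cells (24%) and between both guides and parental cells (23.1%), and 0 of 9 between guide 2 and parental cells (9.38%). Between edited lines it was 1 of 10, RGS2, for guide 1 against guide 2 (12.7%), 5 of 10 for both guides against guide 1 (RGS12 and RGS16 higher, RGS2, RGS4 and RGS5 lower with both guides, 28.8%) and 1 of 10, RGS2, for both guides against guide 2 (10.4%).

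**Figure D3:**
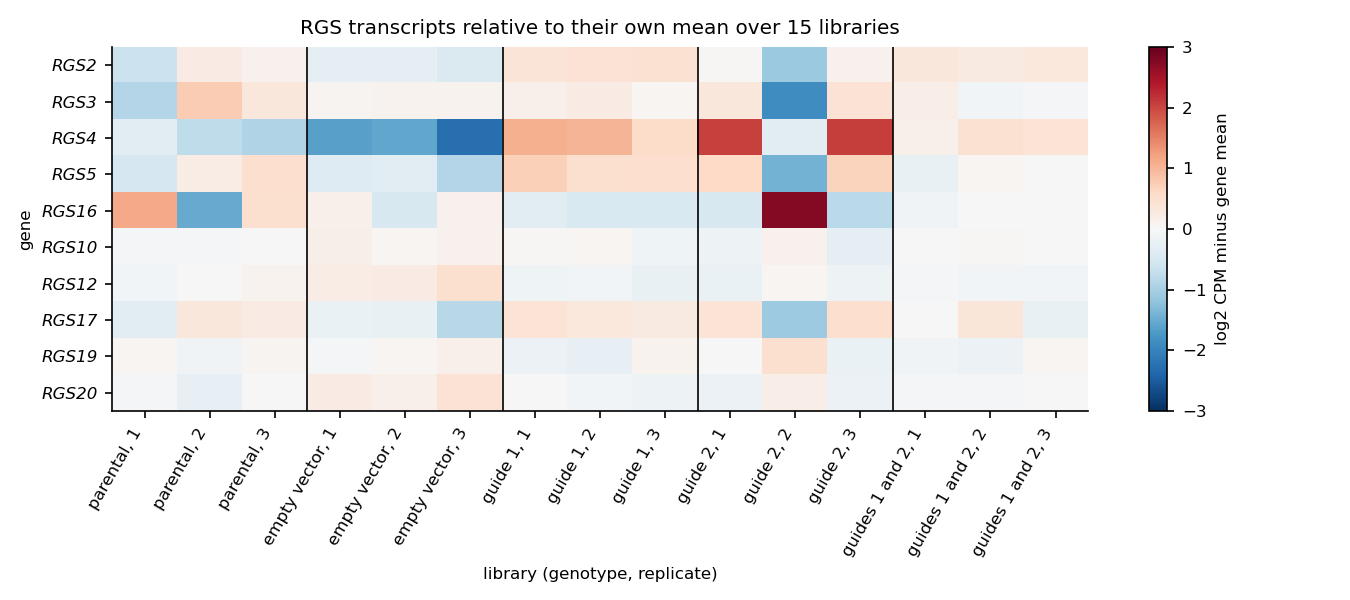
Log2 CPM of each RGS gene (rows) in each library (columns) minus the mean of that gene over the 15 libraries, as colour from blue (lower) to red (higher). RGS4 is lowest in the empty-vector libraries and highest in guide 2 replicates 1 and 3. Guide 2 replicate 2 has the lowest level of RGS2, RGS3, RGS5 and RGS17 and the highest of RGS16 and RGS19.

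The levels of an epithelial adhesion gene are set beside those of the RGS genes. CDH1, which encodes E-cadherin, was at 0.0191, 0.152 and 0.158 CPM in guide 1 cells and at 0.0361, 91.4 and 0.0434 CPM in guide 2 cells. It was at 23.4, 17.3 and 14.8 CPM with both guides, at 44.1, 46.8 and 127 CPM in empty-vector cells and at 42.9, 1.79 and 37.8 CPM in parental cells. The summed level of the 11 epithelial markers was 1885 to 2636 CPM in guide 1 cells, 2068 to 12056 in guide 2 cells, 3238 to 3624 with both guides, 5353 to 8059 in empty-vector cells and 2422 to 6847 in parental cells. That of 7 mesenchymal markers was 15009 to 20819, 3905 to 15761, 11418 to 11730, 13505 to 15304 and 8485 to 13905 CPM in the same order. In both lists guide 2 replicate 2 was the extreme, and the other guide 2 libraries were at 2068 and 2240 CPM for the epithelial and at 14068 and 15761 CPM for the mesenchymal list. Within the epithelial list, KRT5, KRT14, KRT17, KRT6A, TP63, EPCAM and ITGA6 were highest in guide 2 replicate 2, but KRT8 was lowest there (70.2 CPM). CDH1 and KRT18 were highest in empty vector replicate 3, and ITGB4 in guide 1 replicate 2 (832 CPM). The mesenchymal sum was mostly FN1 (2818 to 18543 CPM) and VIM (866 to 2289 CPM). SNAI2, a transcription factor of the same list, lay between 126 and 160.5 CPM and was highest in guide 2 replicate 2, where FN1, VIM, ZEB1, ZEB2, CDH2 and TWIST1 were lowest. In bulk RNA, fewer cells of a type and less RNA per cell cannot be told apart.

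RGS4 was highest where CDH1 was lowest. Guide 1 cells and guide 2 replicates 1 and 3 had at most 0.158 CPM of CDH1 and 3.66 to 10.5 CPM of RGS4, above every other library. Empty vector replicate 3 had the highest CDH1 (127 CPM) and the lowest RGS4 (0.522 CPM). Guide 2 replicate 2, at 91.4 CPM of CDH1, had the lowest RGS4 of the edited libraries (1.99 CPM). But RGS4 and CDH1 were not opposed in every library. Parental replicate 2 had 1.79 CPM of CDH1 and 1.49 CPM of RGS4, below the RGS4 level of every edited library. Cells with both guides had at least 14.8 CPM of CDH1 and 2.80 to 3.42 CPM of RGS4. The part of the epithelial markers in the RGS differences was not tested. Among blood cell markers CD3E and MS4A1 had no count, and PTPRC, SPI1 and CD68 reached at most 0.0542, 0.0506 and 0.116 CPM, whereas CD14 lay between 3.24 and 6.95 CPM. Of 4 endothelial markers, CDH5 and VWF reached at most 0.0191 and 0.163 CPM, whereas PECAM1 lay between 0.585 and 1.99 CPM and KDR between 1.72 and 10.99 CPM. The part of these genes in the RGS differences was not tested.

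**Figure D4:**
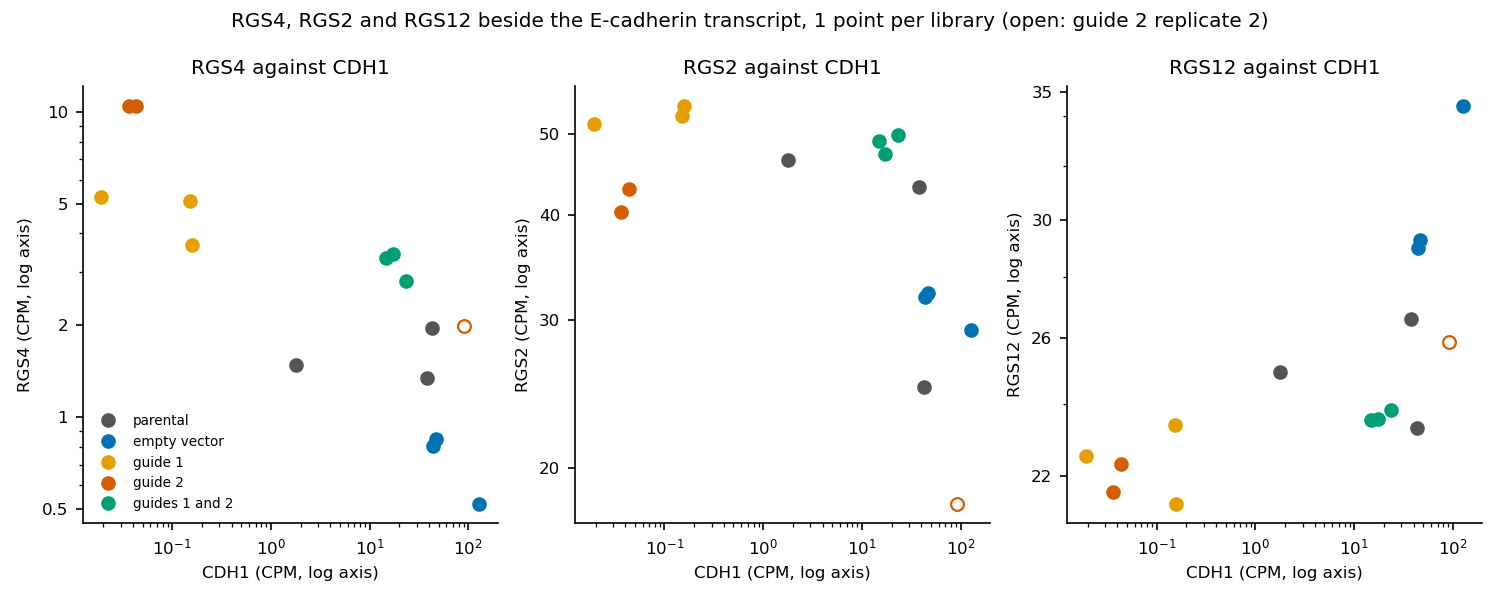
RGS4, RGS2 and RGS12 (vertical axes, CPM, log scale) against CDH1 (horizontal axes, CPM, log scale), 1 point per library and colour by genotype. The open point is guide 2 replicate 2, at 91.4 CPM of CDH1 and 1.99 CPM of RGS4, and the parental library at 1.79 CPM of CDH1 has 1.49 CPM of RGS4.

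RGS4 and RGS5 are neighbours on chromosome 1, with 34.3 kb between their ends. Of 19 annotated genes within 500 kb of them, 9 were tested. With all libraries edgeR called none of the 7 besides RGS4 and RGS5 in an edited line against the empty vector (5.88%, 3.94% and 0.962% of all genes called for guide 1, guide 2 and both guides) or against parental cells (0.149%, 0.0516% and 0.195%). NUF2 in guide 2 against the empty vector was at the threshold (0.76, edgeR adjusted p = 0.0502). Without guide 2 replicate 2 it passed (0.79, edgeR adjusted p = 0.0209), as did HSD17B7 in the same comparison (0.42, edgeR adjusted p = 0.0240) and UAP1 in guide 1 (-0.21, edgeR adjusted p = 0.0266), where 14.5% and 18.1% of all genes were called. Against parental cells UAP1 was then higher in guide 2 and in both guides (0.29 and 0.34, edgeR adjusted p = 0.0226 and 0.0103) and HSD17B7 in guide 2 (0.44, edgeR adjusted p = 0.0367). UAP1, which makes a sugar nucleotide, and HSD17B7, a steroid dehydrogenase, were chosen after their values were seen. DDR2, a collagen receptor, lay between 1.58 and 2.40 CPM in all libraries. NUF2 was higher in parental than in empty-vector cells by 0.86 on the log2 scale (edgeR adjusted p = 0.0291), a call lost in 7 fits that each left out 1 library (edgeR adjusted p from 0.0519 to 0.119).

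**Figure D5:**
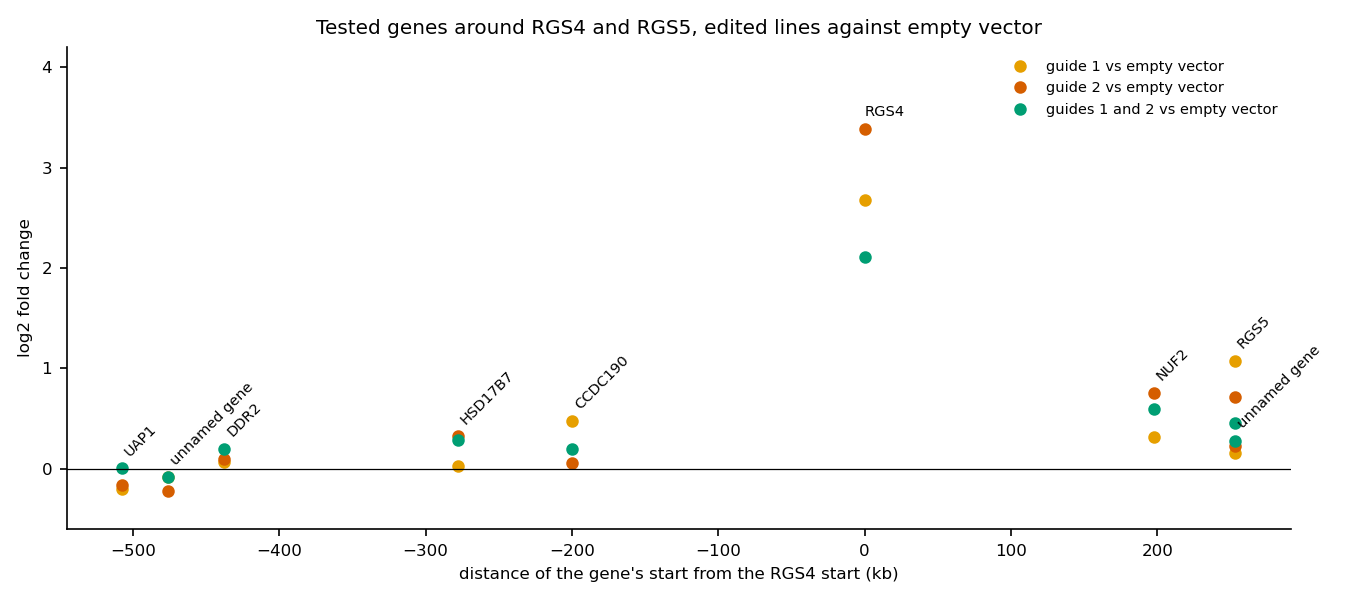
Log2 fold change against the empty vector (vertical axis) of the 9 tested genes around RGS4 and RGS5, by the distance of each gene's start from the RGS4 start (horizontal axis, kb), with 1 colour per edited line. RGS4 is at 2.11 to 3.39 and the next highest value is RGS5 at 1.08 in guide 1 cells.

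Levels of the members can be ordered per kilobase of annotated exon, averaged over the 15 libraries. RGS2 led with 19.5 CPM per kb, followed by RGS10 with 15.2, RGS20 with 5.32, RGS19 with 4.92, RGS12 with 1.82 and RGS17 with 1.04. RGS4 (0.737), RGS5 (0.638), RGS3 (0.589) and RGS16 (0.544) came last. The ranges of neighbours in this order overlap over the libraries, apart from RGS10 with RGS20, RGS19 with RGS12 and RGS12 with RGS17. The order changed between genotypes: in empty-vector cells RGS10 (16.6 CPM per kb) was above RGS2 (14.9). RGS4 was the lowest of the 10 in empty-vector and parental cells (0.150 and 0.330 CPM per kb) and had rank 6 in guide 2 cells (1.58 CPM per kb). Of 11 other RGS genes, RGS7, RGS9, RGS11 and RGS14 were tested, and RGS1, RGS13 and RGS21 had no count. With all libraries edgeR called 0 of the 4 in any comparison, where 0.0401% to 5.88% of all genes were called. In the fit without guide 2 replicate 2 it called RGS14 lower in guide 1 against the empty vector (18.1% of all genes) and in the edited mean (18%), and RGS11 higher against parental cells in guide 1 (14.5%) and guide 2 (5.96%) and lower in parental against empty-vector cells (13.9%).

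Of 13 alpha subunit genes 12 were tested, and GNA12 was called once, in guide 1 against the empty vector (-0.27, edgeR adjusted p = 0.0295). Of 12 beta and gamma subunit genes 11 were tested, and GNG2 was called once, in the same comparison (1.61, edgeR adjusted p = 0.0209). In that comparison 5.88% of all genes were called. Of 13 effector genes 10 were tested. EdgeR called 2, 1 and 3 of them in guide 1, guide 2 and parental cells against the empty vector. Of all genes, 5.88%, 3.94% and 4.37% were called there. ADCY7, an adenylyl cyclase that makes cyclic AMP, was lower than in empty-vector cells with guide 1 (-0.50, edgeR adjusted p = 0.0290), with guide 2 (-0.58, edgeR adjusted p = 0.0192) and in parental cells (-0.47, edgeR adjusted p = 0.0430), and was at 37.6, 37.3 and 38.0 CPM with both guides against 32.7, 34.0 and 40.7 CPM with the empty vector. ADCY3, another adenylyl cyclase, was lower in guide 1 and in parental cells (-0.35 and -0.38, edgeR adjusted p = 0.0191 and 0.0164), and ADCY8 was lower in parental cells (-2.85, edgeR adjusted p = 0.0431). ADCY8 was near the floor, at 0.0526, 0.0313 and 0 CPM in parental and 0.298, 0.313 and 0.0560 CPM in empty-vector cells. The ADCY7 calls were lost without empty vector replicate 3, guide 1 replicate 1 or guide 1 replicate 2 for guide 1 (edgeR adjusted p from 0.103 to 0.139), without empty vector replicate 3, guide 2 replicate 1 or guide 2 replicate 3 or with only the compared groups for guide 2 (0.0622 to 0.144), and in 14 alternatives for parental cells (0.0527 to 0.174). The other calls named here were lost in 4 to 13 alternatives each. GNA12, GNG2, ADCY3 and ADCY8 were chosen after their values were seen. Of 8 other regulators of heterotrimeric G proteins 7 were tested and edgeR called 0 in any comparison with all libraries, where 0.0401% to 5.88% of all genes were called.

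With guide 2 replicate 2 left out, edgeR called 5, 2 and 2 of 12 alpha subunit genes in guide 1, guide 2 and both guides against the empty vector, where 18.1%, 14.5% and 6.7% of all genes were called. In guide 1 these were GNAS higher and GNA12, GNA15, GNAI1 and GNAI3 lower. It called 2, 4 and 0 of 11 beta and gamma genes, 4, 2 and 1 of 10 effector genes and 0, 0 and 1 of 7 other regulators in the same order. GNG2 was higher in guide 1 and guide 2 cells (1.60 and 1.13, edgeR adjusted p = 9.1e-05 and 0.00150), and PLCB1, a phospholipase C that Gq activates, was higher in all 3 lines (1.07, 1.29 and 0.92, edgeR adjusted p = 0.00148, 0.00118 and 0.0114). These genes were also chosen after their values were seen.

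The N-degron pathway degrades RGS4, RGS5 and RGS16 proteins from their processed N termini, and its genes were examined for that reason. All 8 were tested. With all libraries edgeR called 1, 2 and 0 of 8 in guide 1, guide 2 and both guides against the empty vector. Of all genes, 5.88%, 3.94% and 0.962% were called there. In the edited mean it called 1 of 8, where 1.51% of all genes were called. UBR2, a ubiquitin ligase that recognises such ends, was at 74.4, 78.5 and 82.8 CPM in empty-vector cells and between 56.0 and 67.7 CPM in the 9 edited libraries, and at 64.5, 66.2 and 68.3 CPM in parental cells, which overlapped with the edited ones. It was lower in guide 1 (-0.33, edgeR adjusted p = 0.0243) and guide 2 cells (-0.35, edgeR adjusted p = 0.0219). UBR1, its close relative, was at 49.9 to 57.9 CPM in edited and 57.9 to 65.7 CPM in unedited libraries, at -0.20 on the log2 scale for the edited mean (edgeR adjusted p = 0.0285) and -0.30 for guide 2 against the empty vector (edgeR adjusted p = 0.0206). The UBR2 calls were lost without the filter on low counts and without empty vector replicate 2 or 3, any 1 guide 1 library (guide 1) or guide 2 replicate 1 or 3 (guide 2), and for guide 2 with only the compared groups (edgeR adjusted p from 0.0515 to 0.116 for guide 1 and from 0.0552 to 0.225 for guide 2). The UBR1 call in guide 2 was lost without the filter, with only the compared groups, and without empty vector replicate 3 or guide 2 replicate 1 or 3 (0.0579 to 0.198), and that in the edited mean in 11 alternatives, the filter and the replicate block among them (0.0542 to 0.119). When guide 2 replicate 2 was left out, edgeR called UBR1 and UBR2 lower than the empty vector in all 3 edited lines, 2 of 8 in each. Of all genes, 18.1%, 14.5% and 6.7% were called there for guide 1, guide 2 and both guides. UBR2 was also called in parental cells (-0.29, edgeR adjusted p = 0.0124), where 13.9% of all genes were called. Protein was not measured.

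The genes whose levels over the 15 libraries were most like those of RGS4 were DEAF1 (Pearson r 0.938), PPM1F (0.900), PKIA (0.900), IFIT5 (0.899) and CLMP (0.897), among 11632 genes compared. The most opposite were ZNF641 (-0.939), ITGA1 (-0.932) and CFAP251 (-0.932). Only genes with a mean log2 CPM of at least 1 were compared, which left out RGS16. Among the other members, r with RGS4 was 0.65 for RGS5, 0.63 for RGS17, 0.47 for RGS2 and 0.14 for RGS3. It was -0.86 for RGS12, -0.70 for RGS10, -0.68 for RGS20 and -0.43 for RGS19. Over the other 14 libraries, guide 2 replicate 2 left out, these values were 0.78, 0.76, 0.58, 0.14, -0.86, -0.70, -0.68 and -0.53 in the same order. Those of the 8 genes named first, DEAF1 to CFAP251, lay between 0.900 and 0.941 or between -0.952 and -0.931. These r values describe 15 libraries that share 5 genotypes and the library that stood apart.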

How the data were processed

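RNA from 15 libraries was sequenced with a KAPA mRNA HyperPrep kit, per the labels' protocols. Per the submitters' processing notes, Trim Galore 0.6.0, STAR 2.7.8a and GRCh38 were used. The counting program, annotation and strand setting are not given in the sources used here. The authors deposited whole-number read counts per gene and a CPM table, and the deposited CPM equal counts divided by library totals to within 4.91e-11. Printed levels are CPM.

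Counts were tested with edgeR 4.0.16 (TMM scaling, filterByExpr, quasi-likelihood test, two-sided) in 1 model of the 5 genotypes over all 15 libraries (10 residual degrees of freedom). Benjamini-Hochberg adjustment ran over all 17457 genes, and the threshold was 0.05. The procedure was checked on simulated counts. Positions come from GENCODE 29. The members and gene lists were chosen with earlier results of these data known. Named are the 10 members, genes of the lists called in the edited mean or in at least 2 single-line comparisons, and the genes most like RGS4 (Pearson r on log2 CPM, prior count 2). Replicate pairs differed beyond sampling noise in 24.6% to 76.8% of genes, so none was treated as 1 library deposited more than once; this does not tell whether cultures were separate. Floors of 3 counts cover counting error only.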

Additional observations from a re-analysis of the deposited data

How the results depend on the processing

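The main counts were 1 for guide 1 and for guide 2 against the empty vector and 0 elsewhere. The count in guide 1 against the empty vector was 2 with DESeq2, 5 with voom and sample quality weights, and 5 with only the compared groups in the fit. In guide 2 it was 6 with voom and 0 without the filter on low counts, with only the compared groups, and with the replicate block. In both guides it was 1 with DESeq2, 3 with voom and 3 with only the compared groups. Against parental cells voom gave 3, 2 and 1 for guide 1, guide 2 and both guides. The edited mean gave 1 with DESeq2 and 7 with voom, and parental against empty vector 2 and 7. Between lines voom gave 3 (guide 1 against guide 2), 2 (both guides against guide 1) and 3 (both against guide 2), and the compared groups alone gave 1 for both guides against guide 1. Of all genes, voom called 42.5%, 33.2% and 26.7% for guide 1, guide 2 and both guides against the empty vector. It called 52.9%, 32.5% and 21.3% against parental cells, 42% in the edited mean and 36.3% in parental against empty vector. Between lines it called 20.2%, 46.5% and 15.2% in the order above. The compared groups alone called 15.8%, 0.0794% and 18.7% for the 3 lines against the empty vector and 7.67% for both guides against guide 1. In the other comparisons they called at most 6.85%. For DESeq2, the fit without the filter and the replicate block no such share is given. Leaving out 1 library at a time gave 0 to 5 in guide 1, 0 to 5 in guide 2 and 0 to 3 in both guides against the empty vector, 0 to 0 against parental cells, 0 to 5 in the edited mean, 0 to 3 in parental against empty vector, and 0 to 0, 0 to 0 and 0 to 1 between lines (in the order above). The highest counts came without guide 2 replicate 2, and the shares of all genes in that fit are given above. For the other fits that left out 1 library no such share is given, so these counts are not read as an excess.

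A further fit left out guide 2 replicate 2 and parental replicate 1 together. It was added after the data were seen, and these libraries were picked because RGS2 and RGS3 were lowest there, so its calls support nothing. It gave 5, 6 and 3 against the empty vector, 1 (guide 1) and 1 (both guides) against parental cells, 3 for the edited mean, 7 for parental against empty vector, and 2, 1 and 2 between lines, with 0.355% to 23.7% of all genes called.

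For single genes, 1082 alternative values kept their direction and side of the threshold, 103 passed newly, 96 no longer passed, 8 turned direction and 1 untested value, RGS4 in guide 1 against parental, moved to 1.90 with voom. None of the turned ones was past the threshold. RGS16 in guide 2 against the empty vector was -0.44 with voom and -0.62 with both libraries out, and ran from -0.63 (without guide 2 replicate 2) to 1.91 when 1 library was left out. The others came from leaving out 1 library. RGS2 in guide 2 against the empty vector ran from -0.11 to 0.39, and was -0.06 without guide 2 replicate 1. RGS3 ran from -0.51 to 0.20 in both guides against parental and from -0.30 to 0.43 in parental against empty vector, and turned without parental replicate 2. RGS5 in both guides against guide 2 ran from -0.68 to 0.028. The cause was not tested.

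Equal replicate numbers did not pair the libraries: the mean correlation of same-numbered deviations was -0.05 (from -0.75 to 0.28), 1 of 10 pairs of groups had every correlation over 0.1, and 6 of 15 libraries correlated best with their own number. With this number as a replicate block the count was 1 in guide 1, 0 in guide 2 and 0 in both guides against the empty vector. Depth limits RGS16 and RGS4 most, with as few as 22 and 28 counts in a library.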
